A study of Drosophila melanogaster with 18 samples.

Results

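In photoreceptor nuclei of Drosophila, 193 genes were higher in 30-day-old flies than in 5-day-old flies, lay in between at day 15, and stayed near the day 5 level after 8 h of blue light. These genes are 193 of the 9426 genes with over 10 counts in every one of 18 samples. They were chosen by their measured values. Each count was scaled by the total over genes in its sample and is given as CPM (1 CPM is 1 count in each 1 M counts), and the level of a gene in a condition was log2(mean CPM of 3 samples + 1). A member had a day 30 (D30) level at least 0.8 above its day 5 (D5) level and a day 15 (D15) level between them. It also had an 8 h light level less than 0.5 away from D5, and all 3 D30 samples lay above all 3 D5 samples. The values at D5, D15, D30 and 8 h are therefore descriptions here and carry no test. The samples taken after 3 h and 5 h of blue light took part only in the filter of over 10 counts in every sample. A gene that fell to 10 counts or fewer in one of them could not be a member.

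All samples came from male white-eyed flies of the w1118; cn bw background that carried the Rh1-GFP-Msp300KASH transgene, in which the ninaE promoter drives a GFP nuclear envelope tag in the outer photoreceptors R1 to R6. In the line used for sequencing the transgene sits beside Catalase, whose expression is raised in these flies, and every group shares this. Tagged nuclei from pooled flies were captured, and RNA from them was sequenced after removal of the ribosomal part, with 3 samples for each of 6 conditions. The conditions were D5, D15 and D30 under a daily light and dark cycle, and D5 flies given blue light for 3 h, 5 h or 8 h. D5 and D15 were sequenced in 1 lane, the light samples in another, and D30 was run on another flow cell, so the flow cell and age 30 cannot be told apart.

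R1 to R6 photoreceptors carry the rhodopsin Rh1 and send light responses to the optic lobe for the whole adult life without dividing. Their nuclei hold newly made and unspliced RNA as well as messenger RNA waiting for export. In RNA from many nuclei, fewer nuclei of a type and less RNA per nucleus cannot be told apart.

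Read pairs on genes ranged from 11.4 M to 20.5 M per sample, and from 11.4 M to 15 M at D30. Read pairs with several alignments, which were not counted, made up 25.2% to 26.6% of pairs at D30 and 6.33% to 10.5% in the other 15 samples. Summed CPM of 16 markers of R1 to R6 was 67049 to 80146 at D5 and 62876 to 92793 at D30, and the 14 muscle markers summed to 3663 to 6125 and 4340 to 11613. The 14 glial markers summed to 872 to 1062 CPM at D5 and 672 to 1262 at D30. At D15 and 8 h, which also define the members, marker sums of some other cells lay below D5 without overlap: glia at 550 to 627 and 452 to 569 CPM, fat body at 2434 to 3050 and 1646 to 2383 against 3900 to 5482, haemocytes at 195 to 243 and 217 to 244 against 426 to 530, and muscle at 2942 to 2985 and 2450 to 3084. Sums for R7 and R8 and for cone and pigment cells did so too. Markers of other neurons overlapped D5 (4009 to 5408 CPM) both at D15 (4282 to 4777) and at 8 h (3565 to 4237). The 25 testis and germline markers summed to 57.9 to 74.8 CPM at D5 and 68.3 to 81.3 at D15, which overlap, and to 86.2 to 122 at D30, above D5 in every sample. At 8 h they summed to 63.6 to 71 CPM, within the D5 range. At 3 h, R1 to R6 markers summed to 56973 to 63578 CPM, below every D5 sample. At 5 h they overlapped D5 (60148 to 78800). Glia (1490 to 2001 CPM) and testis markers lay above D5 at 3 h and overlapped it at 5 h. Of the glial markers, Eaat1 had a mean of 1254 CPM at 3 h and 136 at D5. Other neurons (3479 to 3728 and 3387 to 3703), haemocytes, R7 and R8, and cone and pigment cells lay below D5 at both times. Fat body lay below D5 at 5 h only, and muscle overlapped it at both. The part of depth, multiple alignment and other cell types in the results below was not tested.

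The members were mostly genes of low level. Their median mean CPM was 3.04, 4.82 and 8.41 in the order D5, D15 and D30, with 15.5, 13.1 and 16.2 over all 9426 genes. At D5, 60 of the 193 (31.1%) had a mean under 2 CPM, a range that held 4.52% of all genes, and 28 (14.5%) had 10 CPM or more, which 60.5% of all genes had. The median member had 54 counts at D5, and 97 members fell under 30 counts in at least 1 sample, so single values of these carry wide counting error. The ratio of mean CPM, D30 to D5, ranged from 1.8 to 19.9 with a median of 2.47.

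**Figure D1:**
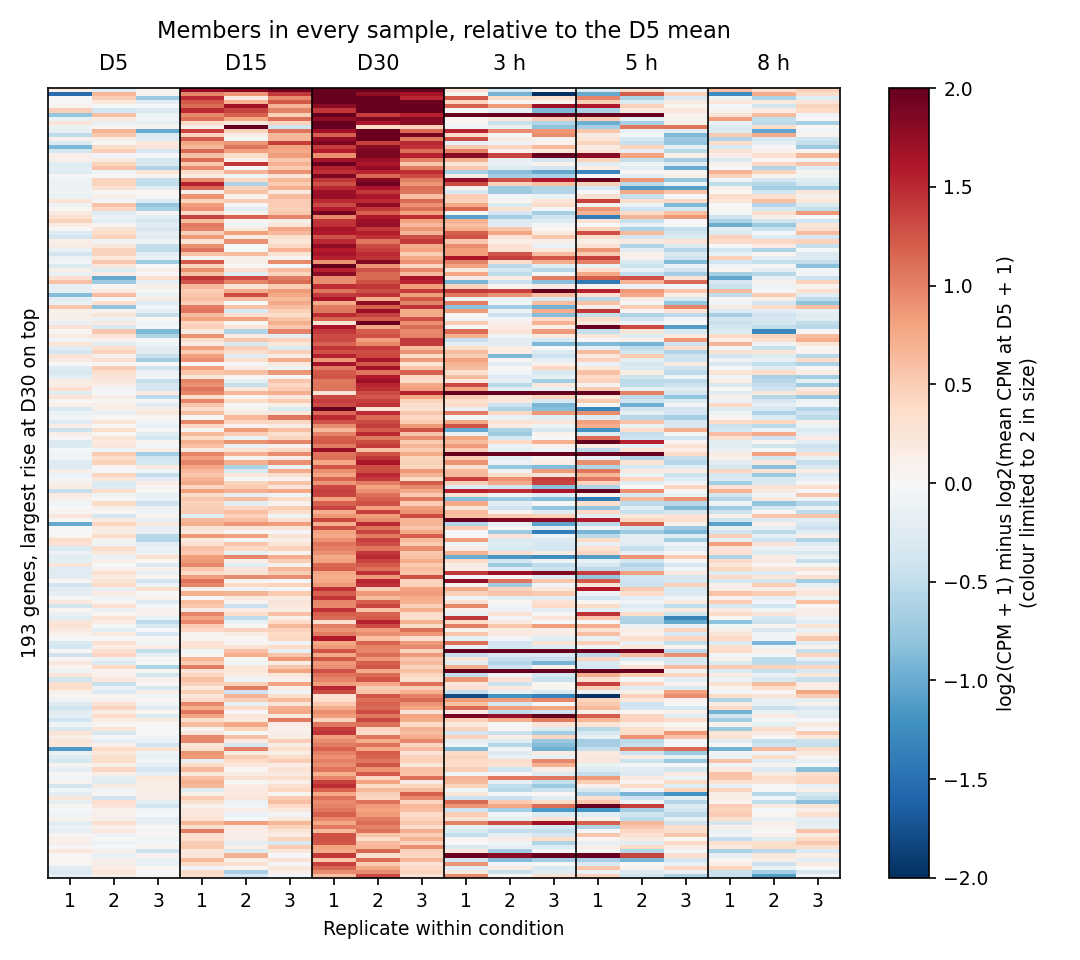
Heat map of the 193 members (rows, largest D30 difference on top) in the 18 samples (columns, 3 replicates for each condition). Colour gives log2(CPM + 1) minus log2(mean CPM at D5 + 1), red above D5 and blue below. The D30 columns are red by the way members were chosen, replicate 3 at D30 is paler than its partners, and scattered rows are dark red at 3 h and in 5 h replicate 1.

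The edge of the selection was not a gap. Mur89F, a mucin-related gene, was just inside with a D30 minus D5 difference of 0.80 (2.69 ± 0.416 CPM at D5 and 5.42 ± 2.45 at D30, SD, n = 3). CG2444 (1.72 ± 0.511 and 3.74 ± 0.888 CPM) and mu2 (15.2 ± 1.44 and 27.2 ± 6.08 CPM), a telomere and chromatin protein, were inside at 0.80 as well. P5CDh2 (1.95 and 4.14 CPM), Rrp1 (3.85 and 7.43 CPM) and lncRNA:CR45200 (0.98 and 2.44 CPM) fell just below the limit and met every other condition. In all, 636 genes met the other conditions and 443 of them were below the limit.

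The pseudogene CR43086 (3L, 17868740 to 17870573, build BDGP6.54) had the largest difference of the set, 3.42. It was at 1.26, 0.779 and 1.11 CPM in the D5 samples, at 5.97, 6.25 and 6.86 at D15 and at 21.9, 19.8 and 20.8 at D30. After light it stayed between 0.605 and 2.1 CPM in all 9 samples. Each age was separate from the others, and D30 lay above every other sample of the study. CG34002 lies upstream on the same strand (3L, 17858474 to 17860482). Its mean was 1.98 ± 0.441 CPM at D5, 5.27 ± 1.26 at D15 and 11.1 ± 0.441 at D30 (SD, n = 3), and 2.33 to 2.48 in the light conditions.

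pirk, which holds back Imd immune signalling, followed with a difference of 2.33. Its D5 samples were at 3.35, 18.9 and 12.1 CPM, its D15 samples at 23.5, 22.0 and 32.4, and its D30 samples at 105, 41.8 and 38.7. Replicate 1 of D30 stood far above its partners, and the 3 h samples spread from 1.32 to 12 CPM. AsnS, the asparagine synthetase, rested on single libraries in the same way: D30 was at 126, 21.2 and 22.2 CPM against 14.5, 16.6 and 16.8 at D5, and D15 at 17.3, 77.7 and 11.8. Most of the AsnS mean at each later age thus came from 1 sample.

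Tret1-2, a sugar transporter of the trehalose transporter family, was at 1.49, 1.38 and 1.37 CPM at D5 and at 7.38, 8.80 and 9.44 at D30, a ratio of means of 6.04. It was also at 4.45, 3.35 and 6.79 CPM after 3 h of light, above D5 in each sample, but did not pass the test there (log2 fold change 0.83 ± 0.46 SE, edgeR adjusted p = 0.297). Kua was at 4.90, 2.22 and 2.43 CPM at D5, 10.7, 9.65 and 7.31 at D15 and 10.2, 16.2 and 18 at D30. Its D15 and D30 samples overlapped, and D15 also lay above D5, as D30 did by the choice. CG12129 had means of 2.30 ± 0.408, 5.6 ± 0.807 and 10.6 ± 0.371 CPM at the 3 ages.

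**Figure D2:**
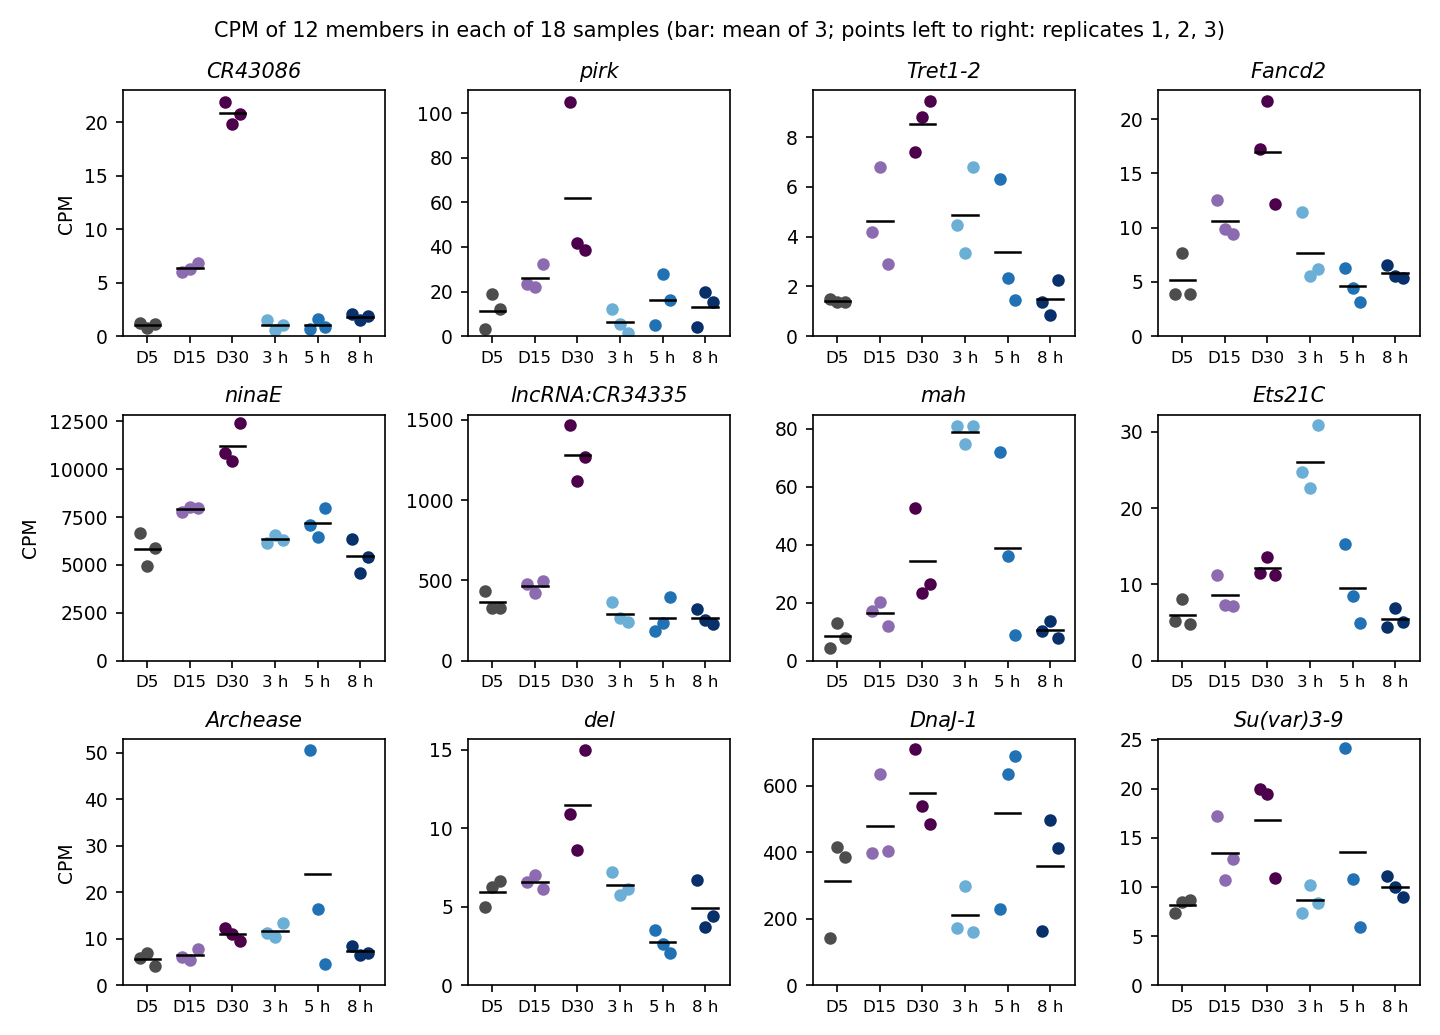
CPM (y axes, linear, from 0) of 12 members in each sample by condition (x axes). Points are samples, replicates 1 to 3 from left to right, and the bar is their mean. CR43086 and lncRNA:CR34335 stand apart at D30, mah and Ets21C are highest at 3 h, and 5 h replicate 1 is far above its partners for Archease (50.5 against 16.3 and 4.53 CPM) and Su(var)3-9 (24.1 against 10.8 and 5.95 CPM).

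Of the 5 members with the highest D5 level, the first was ninaE, the gene for the Rh1 opsin itself. It was at 6660, 4959 and 5859 CPM at D5, at 7743, 8040 and 7986 at D15 and at 10835, 10412 and 12437 at D30. Its samples did not overlap between the 3 ages. After light, ninaE was at 6145 to 6553 CPM at 3 h, 6448 to 7956 at 5 h and 4602 to 6334 at 8 h. Against D5, the fitted log2 fold change was 0.35 ± 0.18 (SE) at 3 h and 0.33 ± 0.16 at 5 h, and neither passed (edgeR adjusted p = 0.253 and 0.197). It was the only member among the 16 markers of R1 to R6. The ninaE promoter also drives the tag by which the nuclei were captured.

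Moe encodes moesin, which links actin to the cell membrane. Its samples were at 624, 243 and 412 CPM at D5, at 878, 630 and 654 at D15 and at 881, 967 and 1164 at D30. The light samples ran from 220 to 263 CPM at 3 h and from 466 to 842 at 5 h, without overlap. lncRNA:CR34335, which lies within the span of DIP-alpha on its strand (X, 3545750 to 3546110), was at 433, 329 and 329 CPM at D5, 477, 423 and 494 at D15 and 1467, 1121 and 1266 at D30. Only 19.5% of its log2 difference was present at D15. DnaJ-1, an Hsp40 partner of Hsp70, spread widely within groups: 141, 414 and 386 CPM at D5, 710, 539 and 483 at D30, and 228, 636 and 689 at 5 h. Usp8, a deubiquitinase of the endosome, was at 212, 83.3 and 214 CPM at D5, 458, 420 and 348 at D15 and 330, 378 and 524 at D30, so 99.4% of its difference was present at D15.

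InR, Crg-1 and yps, also of high level, were picked after their values were seen. InR, the insulin receptor, had means of 140 ± 11.8 CPM at D5, 199 ± 56.9 at D15 and 354 ± 56.2 at D30 (SD, n = 3), and 161 to 187 in the light conditions. Crg-1, a forkhead gene first found by its circadian expression, had 76.4 ± 35.1, 167 ± 15.6 and 185 ± 38.0 CPM at the 3 ages. The cold shock domain gene yps had 76.2 ± 15.9, 83.4 ± 7.45 and 142 ± 58.2 CPM.

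In edgeR, 152 of the 193 members (78.8%) passed an adjusted p under 0.05 in D30 against D5, where 8.79% of 9427 features were called higher and 8.72% lower. None was called lower, and none had an unadjusted p under 0.05 in that direction in edgeR or a call in DESeq2. The choice used this contrast, so nothing is read from the count. Replicates weighed on it: it was 75 without D5 replicate 3, 85 without D30 replicate 2 and 98 without D30 replicate 1.

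D15 and D5 shared a lane, and there 25 members (13.0%) were called higher and 0 lower, beside backgrounds of 1.52% and 2.29%. With DESeq2 52 were called higher, and none was lower at an unadjusted p under 0.05 in edgeR. The share of all features that DESeq2 called is not given here, so nothing is read from the 52. All D15 samples lay above all D5 samples for 77 members (39.9%), against 7.87% of all genes. All D30 samples lay above all D15 samples for 91 (background 20.9%), and above all other 15 samples for 53 (background 2.8%). Since a member had to lie between D5 and D30 at D15, these are descriptions. The median member had 40.5% of its log2 difference at D15, and the middle 50% of members had 24.9% to 56.0%. The D15 count was the least stable: it was 1 without D5 replicate 3, 4 without D15 replicate 3, 5 without D15 replicate 1, 9 without D30 replicate 3, 16 without D5 replicate 2 or D15 replicate 2, and 46 without D30 replicate 1.

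Several members act in DNA repair. Fancd2 and FANCI form the pair of proteins that is loaded onto DNA at crosslinks in the Fanconi pathway. Fancd2 was at 3.89, 7.67 and 3.85 CPM at D5, 12.5, 9.83 and 9.42 at D15 and 17.2, 21.7 and 12.2 at D30, and FANCI had means of 5.39, 8.01 and 11.7. The RecQ4 helicase was at 3.83, 3.53 and 2.80 CPM at D5 and at 7.71, 11.3 and 5.51 at D30. Replicate 3 was the lowest D30 sample for each of these genes. That D30 did not overlap D5 is set by the choice. Xpac, the XPA protein of nucleotide excision repair, had means of 3.09 CPM at D5 and 6.42 at D30. Its rise was not called in edgeR (adjusted p = 0.102), where the fit gave 0.629 with SE 0.255. Its light means were 3.32 CPM at 3 h, 4.1 at 5 h and 4.19 at 8 h. For 5 h over D5 the fit gave 0.897 with SE 0.271, not called either (adjusted p = 0.05). The paper lists Xpac and Rrp1 as higher both at D30 and after 8 h of blue light. Here both lay less than 0.5 from D5 at 8 h.

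Fancd2, FANCI, RecQ4, Xpac and mu2 are among the 6 members on a list of 71 DNA repair genes, of which 61 were tested. On the whole list 19 (31.1%) rose in D30 against D5 and 0 fell (edgeR), beside 8.79% and 8.72% of all features. The median log2 fold change was 0.45 against 0.05 for all features, and 14 of the 19 were not members. Among these were rad50, of the double-strand break complex (19.1 to 42.4 CPM, 1.04 ± 0.12 SE, adjusted p = 0.000194), and PolH, a polymerase that copies past damaged bases (10.1 to 24.8 CPM, 1.17 ± 0.18, adjusted p = 0.000791). After 3, 5 and 8 h of light the means were 31.4, 49.4 and 28.1 CPM for rad50 and 11.1, 14.3 and 15.5 for PolH. The choice used the 3 h and 5 h samples only through the filter on counts. In 5 h against 3 h of light, 10 of the 61 were higher (16.4%) and 1 lower (1.64%), beside 4.78% and 6.18% of all features. In 5 h against D5, 12 (19.7%) were higher and 0 lower, beside 5.07% and 4.53%. In 3 h against D5, 1 (1.64%) was higher and 2 (3.28%) lower, beside 4.64% and 3.25%. None of the 6 members was among those called.

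Members from a list of cell cycle and chromosome segregation genes were ball, scra, neb, ana1 and CycB3. ball encodes a chromatin kinase of meiosis and mitosis and was at 5.38, 5.69 and 3.69 CPM at D5, 11.8, 5.52 and 7.56 at D15 and 17.7, 18.6 and 10.8 at D30. scra, the actin-binding protein anillin of the cleavage furrow, was at 3.17, 4.37 and 1.58 CPM at D5 and 11, 9.80 and 7.70 at D30. neb, a mitotic kinesin, was at 1.67, 3.18 and 2.01 CPM at D5 and 5.58, 5.87 and 5.25 at D30, and its D30 samples lay above all other 15. The centriole gene ana1 had means of 19.8 and 40.0 CPM and CycB3, a mitotic cyclin, 1.55 and 3.76. Of 59 tested genes on the list, 11 (18.6%) rose in D30 against D5 and 0 fell, beside 8.79% and 8.72% of all features. Of the 11, 7 were not members, and the median log2 fold change of the list was 0.43. After 5 h against 3 h, 0 were higher (4.78% of all features) and 5 lower (8.47%, near the 6.18% of all features). The summed testis and germline markers were also higher at D30 (86.2 to 122 CPM against 57.9 to 74.8 at D5), and their part in the cell cycle and small RNA lists was not tested.

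Ribosome biogenesis had 4 members among 74 tested genes: CG13096, CG7544, CG11417 and RpLP0-like. CG13096 was at 4.84, 3.12 and 4.01 CPM at D5 and 7.98, 10.4 and 6.82 at D30. CG11417 was at 7.89, 7.13 and 7.71 CPM at D5 and 19.7, 11.7 and 11.1 at D30. CG7544 had means of 5.26 ± 1.61 and 10.7 ± 1.47 CPM, and its D5 and D15 samples did not overlap. On the list, 19 genes (25.7%) rose at D30, 15 of them not members, and 1 fell (1.35%), beside 8.79% and 8.72% of all features. The list also differed between 2 light exposures: 26 of the 74 (35.1%) were higher at 5 h than at 3 h and 0 lower, beside 4.78% and 6.18% of all features. The median log2 fold change was 0.65 against 0.00 for all features, and the members CG11417 and CG7544 were among the 26. For CG7544 the log2 fold change of 1.00 (adjusted p = 0.0371) was 0.03 without 5 h replicate 1 (adjusted p = 0.97), and the call was lost in 13 of 23 alternative fits. Against D5, 0 of the 74 list genes were higher at 3 h and 11 (14.9%) lower, beside 4.64% and 3.25% of all features. Their median log2 fold change was -0.53. At 5 h against D5, 2 (2.7%) were higher and 0 lower, beside 5.07% and 4.53%, with a median of 0.16.

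Chromatin and small RNA lists had 1 member each. Su(var)3-9, a histone H3 lysine 9 methyltransferase of heterochromatin, was at 7.35, 8.45 and 8.71 CPM at D5, 17.2, 10.7 and 12.8 at D15 and 20, 19.5 and 10.9 at D30. D15 and D30 overlapped, and D15 also lay above D5, as D30 did by the choice. On the heterochromatin list, 6 of 26 tested genes (23.1%) rose at D30 and 0 fell, beside 8.79% and 8.72% of all features. del (deadlock), which marks piRNA source loci for transcription in the ovary, was at 4.96, 6.23 and 6.65 CPM at D5 and 10.9, 8.64 and 15 at D30. Of 23 tested genes of small RNA silencing, 6 (26.1%) rose at D30 and 0 fell, beside the same shares of all features. Of the 6, 5 were not members. Those not members include the Piwi proteins AGO3 (3.85 to 10.8 CPM, 1.16 ± 0.37 SE, adjusted p = 0.0451) and aub (1.19 to 3.19 CPM, 1.30 ± 0.36, adjusted p = 0.0234). Both are also among the testis and germline markers. The helicase spn-E is another (7.30 to 23.5 CPM, 1.42 ± 0.34, adjusted p = 0.0121). After 3, 5 and 8 h of light the means were 7.39, 3.21 and 1.01 CPM for aub, 3.14, 2.71 and 2.31 for AGO3, and 7.66, 4.83 and 3.06 for spn-E.

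Immune defence, detoxification and chaperones gave few members. pirk was the only member of 71 tested immune genes, of which 20 rose at D30 (28.2%) and 6 fell (8.45%), beside 8.79% and 8.72% of all features. Ugt36E1, a UDP-glycosyltransferase, was at 8.31, 9.35 and 12.3 CPM at D5, 13.2, 16.7 and 19.5 at D15 and 29.4, 30.7 and 29.5 at D30, without overlap between ages. GstE8, a glutathione transferase, was at 1.2, 1.14 and 1.21 CPM at D5 and 5.52, 2.32 and 1.75 at D30, so its mean came mostly from replicate 1. Of 99 tested detoxification genes 7 were higher at D30 (7.07%) and 8 lower (8.08%), below the 8.79% and 8.72% of all features. DnaJ-1 was the only member of 26 tested heat shock and chaperone genes, of which 1 rose and 1 fell (3.85% each). The median log2 fold change of this list in D30 against D5 was 0.52, against 0.05 for all features. Some large differences had wide error and were not called, such as Hsp27 (8.94 to 83.8 CPM, 2.77 ± 1.23 SE, edgeR adjusted p = 0.134). The gene that fell was Hsc70-1 (59.9 to 32.7 CPM, adjusted p = 0.0253).

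Non-coding genes took a larger share of the members than of all genes. There were 153 protein-coding genes (79.3%, against 93.1% of all), 35 non-coding RNAs (18.1% against 4.96%) and 4 pseudogenes (2.07% against 0.382%). FBgn0038893, called Archease in the study, has no position in the annotation. The members were also mostly of low level, and the part of low level in this share was not tested. asRNA:CR43971, the largest of the non-coding set after CR43086, was at 1.91, 3.18 and 0.792 CPM at D5, 7.34, 2.31 and 4.68 at D15 and 12.5, 16.1 and 7.43 at D30. It overlaps Ctps and CG45071 on the other strand. The counting's use of strand is not given in the sources used here. Of the 192 placed members, 90 overlap an annotated gene or transposable element on the other strand, so their reads may be shared. The share over all genes is not given here, so nothing is read from the 90.

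The large chromosome arms held members in shares near those of all genes, from 17.1% on 2R (19.9% of all) to 23.8% on 3R (24.3%). Of the members, 2 lay on the Y chromosome, of 5 Y genes that passed the filter. Their exons were shorter, with a median of 1862 bases in all against 2216. Under 5000 bases separated 11 pairs of members, 3 of them overlapping. CG12128 and CG12129 lie 2635 bases apart on 1 strand of 2R, and CG12128 had 18 ± 1.51, 30.5 ± 3.13 and 43.3 ± 1.94 CPM at the 3 ages. mRpS18B, a mitochondrial ribosomal protein, lies 327 bases from Kua on the other strand and had 2.1 ± 0.156, 3.26 ± 0.267 and 6.15 ± 1.47 CPM. lncRNA:CR44034 lies inside InR on the same strand, where reads of both cannot be told apart with certainty.

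Some members carry names from the germline or from other tissues: ms(2)34Fe and Mst36Fb from the testis, alphaTub67C from the egg, Sgs1 from the larval salivary gland and abd-A from the abdomen. All were low at D5, from 1.29 CPM for ms(2)34Fe to 6.86 for Sgs1. All 25 testis and germline markers had a higher mean at D30 than at D5, and for 10 of them all D30 samples lay above all D5 samples. Among the specific ones, aly had means of 2.22 and 7.39 CPM at D5 and D30, soti 1.38 and 5.47, ProtB 0.964 and 5.22 and ProtA 0.569 and 2.81. fzo, a testis mitofusin, was the most abundant and was near level, at 41.2 and 41.5 CPM. Without fzo, a sum added after the values were seen, the list was at 13.9 to 33.3 CPM at D5, 21.7 to 42 at D15, 36.5 to 84.7 at D30, 23.1 to 46.9 at 3 h and 8.27 to 14 at 8 h. Only 5 of the 25 passed the filter, 5 stayed under 1 CPM in every sample, and none was a member. Their part in the members' levels was not tested.

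The limit on light applied at 8 h only, so smaller differences there than at 3 h or 5 h are set by the choice. On the CPM scale, 52 members (26.9%) were at least 0.5 above D5 at 3 h and 34 (17.6%) at 5 h, against 13.3% and 11.6% of all genes. At least 0.5 below were 17 (8.81%) and 9 (4.66%), against 29.9% and 19.1%. For 111 of the 193 (57.5%) both differences stayed within 0.5, as they did for 45.5% of all genes. The median member was 0.15 above D5 at 3 h and 0.05 at 5 h, while the median of all genes was -0.27 and -0.11. TMM scaling, which sets the bulk of genes level, put the median of all genes at 3 h at -0.05, a shift of over 0.1, and the median member at 0.32. With it 68 members were at least 0.5 above D5 at 3 h and 46 at 5 h. In CPM all 3 h samples lay above all D5 samples for 38 members (background 15.6%) and below for 17 (background 38%), and at 5 h the numbers were 12 above (background 7.34%) and 12 below (background 19.4%).

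**Figure D3:**
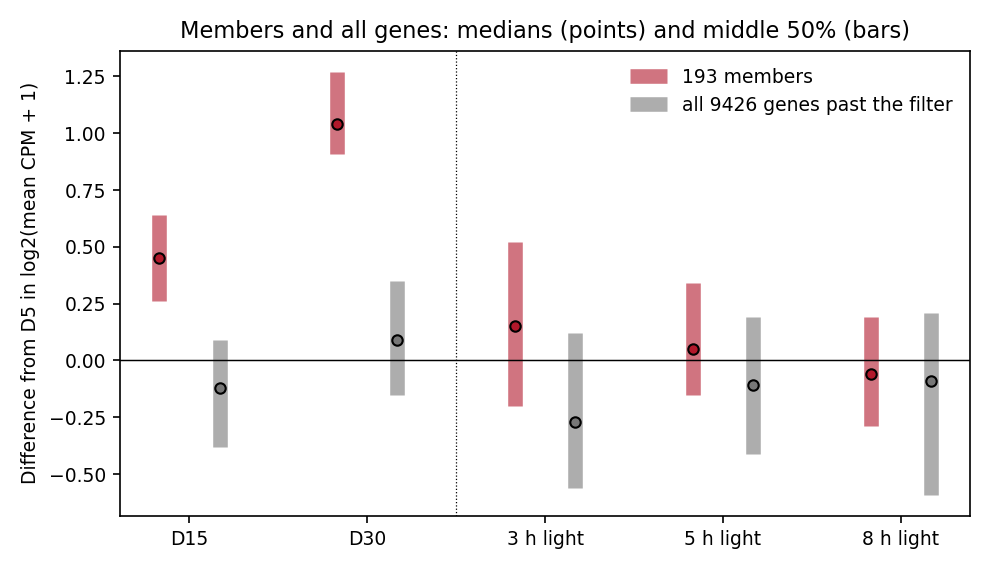
Difference from D5 in log2(mean CPM + 1) at D15, D30 and after 3, 5 and 8 h of light, for the 193 members (red) and all 9426 genes that passed the filter (grey). Points are medians and bars the middle 50% of genes. The members' D30 median is 1.04 and their 8 h median -0.06 by selection, while at 3 h and 5 h the medians are 0.15 and 0.05.

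Against D5, 10 members (5.18%) were called higher at 3 h, near the background of 4.64%, and 0 lower (background 3.25%). At an unadjusted p under 0.05 in edgeR, 25 were higher and 3 lower, and DESeq2 called 12 higher and 1 lower. Shares of all features for these counts are not given here, so nothing is read from them. At 5 h, 10 members were higher (background 5.07%) and 1 lower (background 4.53%). Both comparisons share the D5 samples, which the selection used, so they are not independent of it or of each other. The count at 3 h was 6 without D5 replicate 3 and 20 without 5 h replicate 3. At 5 h it was 6 without D5 replicate 3 or 5 h replicate 2, and 21 without D30 replicate 1.

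The member with the largest light response was mah (mahogany), an eye colour gene for a predicted amino acid transporter. It was at 4.48, 13.1 and 7.65 CPM at D5 and at 80.8, 74.7 and 80.9 after 3 h, above its D30 samples of 52.6, 23.4 and 26.6. At 5 h its samples were at 71.9, 36.2 and 8.85 CPM, and at 8 h at 10.4, 13.6 and 7.91. The 3 h samples lay above all others of the study, and the 8 h samples were back within or next to the D5 range. Its log2 fold change was 2.13 ± 0.43 (SE) at 3 h (edgeR adjusted p = 0.0082) and 1.54 ± 0.37 at 5 h (adjusted p = 0.0194). Without the 2 factors that model variation between replicates it was 3.49 at 3 h. The 3 h call held in all 23 alternative fits, and the 5 h call was lost in 3 of 23 (without D5 replicate 1, D5 replicate 3 or 5 h replicate 2, largest adjusted p = 0.0586).

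Ets21C, a transcription factor of the ETS family that responds to stress signalling, was at 5.2, 8.09 and 4.80 CPM at D5 and 24.8, 22.6 and 30.9 at 3 h. It was at 15.3, 8.42 and 5.00 CPM at 5 h and at 11.5, 13.6 and 11.2 at D30. All 3 h samples exceeded every other sample. The log2 fold change was 1.43 ± 0.28 (SE) at 3 h against D5 (adjusted p = 0.00638) and -1.2 ± 0.25 at 5 h against 3 h (adjusted p = 0.00689). Sgs1 was at 5.74, 6.83 and 8.02 CPM at D5 and 37.3, 37.8 and 54.0 at 3 h, and then ranged from 5.11 to 38.3 at 5 h, which overlapped both. It rose at 3 h by 1.31 ± 0.28 (adjusted p = 0.0118).

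CG33267, clos and mah were the 3 members called higher at both 3 h and 5 h. CG33267 had means of 4.64 ± 2.32 CPM at D5, 46.2 ± 1.84 at 3 h and 29.4 ± 27.8 at 5 h (SD, n = 3), where replicate 1 was at 60.3 and replicate 3 at 6.32. clos (closca), an eggshell protein gene, had 2.12 ± 0.423, 10.9 ± 1.71 and 4.78 ± 3.06. Gr61a and Psf2 had high 3 h samples and did not pass at 3 h. Gr61a, a taste receptor for sugars, was at 11.5, 11 and 8.65 CPM at 3 h and at 33.8, 7.51 and 0.579 at 5 h, against 1.32, 1.86 and 0.633 at D5 (0.95 ± 0.60 SE, adjusted p = 0.363 at 3 h). Psf2, of the GINS complex for DNA replication, was at 7.31, 6.49 and 10.7 CPM at 3 h against 1.2, 0.959 and 1.27 at D5 (1.5 ± 0.50, adjusted p = 0.0783), and passed at 5 h, at 17.3, 4.46 and 1.74 CPM (1.70 ± 0.46, adjusted p = 0.0322). In both, every 3 h sample lay above every D5 sample.

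The first of the 2 RUVs factors in the fit was 0.75 to 0.92 in the 3 h samples, -0.18 to 1.18 in the 5 h samples and 0.08 to 0.31 in all others, so it moved with the 3 h exposure. Without the factors 31 members were called higher at 3 h, and the 10 called with them were among these. The share of all features called without the factors is not given here, so nothing is read from the 31.

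**Figure D4:**
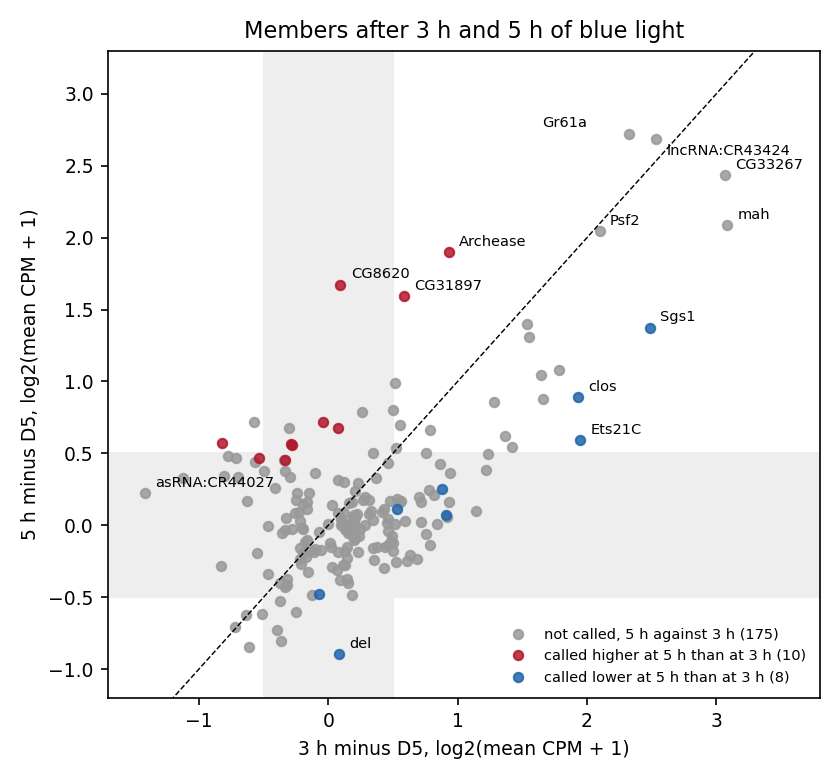
Difference from D5 in log2(mean CPM + 1) at 3 h (x axis) and 5 h (y axis) for each of the 193 members. Red points were called higher at 5 h than at 3 h (10), blue points lower (8), and grey points neither; grey bands mark less than 0.5 from D5 and the dashed line equal differences. Gr61a, lncRNA:CR43424, CG33267 and mah lie far to the upper right, and del has the lowest 5 h value while it lies near 0 at 3 h.

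The 3 h and 5 h samples entered the selection only through the filter on counts. In the comparison of 5 h with 3 h, 10 members (5.18%) were higher, against a background of 4.78%, and 8 (4.15%) lower, against 6.18%. Both shares were near or below the background. The median log2 fold change over members was -0.07, and 0.00 over all features. In CPM, all 5 h samples lay above all 3 h samples for 11 members (background 15.1%) and below for 19 (background 9.41%). The count of calls was 9 without 3 h replicate 1 or 3 h replicate 3, and 8 without the factors.

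del fell by 1.16 on the log2 scale from 3 h to 5 h (SE 0.28, adjusted p = 0.0189), and was the only member called below D5 at 5 h (-1.27 ± 0.29, adjusted p = 0.0134). Its samples were at 7.22, 5.77 and 6.11 CPM at 3 h and 3.52, 2.64 and 2.05 at 5 h, without overlap, and at 6.70, 3.68 and 4.43 at 8 h. ebd2, a relative of a Wnt pathway cofactor, was at 10.4, 11 and 8.79 CPM at 3 h and 5.88, 7.96 and 8.22 at 5 h (-0.77 ± 0.19 SE, adjusted p = 0.019). lncRNA:CR44034 was at 8.48, 7.91 and 7.62 CPM at 3 h and 4.37, 6.19 and 6.64 at 5 h (-0.95 ± 0.24, adjusted p = 0.0197). The groups did not overlap in either. Without 5 h replicate 1 the log2 fold change of ebd2 was -0.39 (adjusted p = 0.334) and that of lncRNA:CR44034 -0.76 (adjusted p = 0.124), and neither was called without the factors (adjusted p = 0.106 and 0.189). Of the 8 called lower, 7 had separate groups in CPM, all but Sgs1.

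Of the 10 called higher at 5 h only 5 had separate groups: CG11417, CG5292, Moe, Uros1 and asRNA:CR45108. CG11417 was at 5.12, 6.54 and 5.72 CPM at 3 h and 11.4, 9.53 and 11.4 at 5 h (0.83 ± 0.20 SE, adjusted p = 0.017), and its call was lost without 5 h replicate 1 (0.53, adjusted p = 0.202) or 3 h replicate 1 (0.64, adjusted p = 0.113). For Archease, known in human cells as a partner of the tRNA ligase, the call went with overlapping samples: 11.2, 10.3 and 13.4 CPM at 3 h and 50.5, 16.3 and 4.53 at 5 h. CG31897 (6.97, 5.72 and 7.38 against 25.2, 13.8 and 4.27 CPM), CG8620 (3.70, 4.29 and 4.15 against 30.3, 10.8 and 1.21 CPM) and Su(var)3-9 (7.39, 10.2 and 8.35 against 24.1, 10.8 and 5.95 CPM) had the same order of 5 h samples.

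In these 4 genes the call rested on the factors or on 1 library. The log2 fold change of Archease was 1.31 ± 0.23 (SE, adjusted p = 0.003), and it was 0.97 without the factors (adjusted p = 0.268) and 0.34 without 5 h replicate 1 (adjusted p = 0.621). CG8620 had 2.0 ± 0.42 (adjusted p = 0.00765), 1.74 without the factors (adjusted p = 0.113) and 0.80 without 5 h replicate 1 (adjusted p = 0.441). Su(var)3-9 had 0.93 ± 0.23 (adjusted p = 0.017), 0.58 (adjusted p = 0.349) and 0.25 (adjusted p = 0.668) in the same fits. CG31897 had 1.46 ± 0.24 (adjusted p = 0.00205), lost its call without the factors (1.04, adjusted p = 0.15) and kept it without 5 h replicate 1 (1.22, adjusted p = 0.017).

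Replicates of a condition differed together across the members. Relative to the D5 mean, the median member was 1.18, 1.24 and 0.74 higher in D30 replicates 1, 2 and 3, and replicate 3 was the lowest D30 sample for 126 of the 193. At 3 h it was 0.46, -0.07 and -0.02, with replicate 1 the highest for 135 members. At 5 h it was 0.23, -0.11 and -0.14, with replicate 1 the highest for 118. The 3 h and 5 h replicates 1 had the fewest read pairs on genes of their groups, 11.9 M and 16.5 M. At D30 it was replicate 3 that had the fewest, 11.4 M, and it had the lowest median.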

How the data were processed

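The authors deposited raw read-pair counts per gene for 17811 features in 18 samples, made per their methods with Trimmomatic, HISAT2 and HTSeq, and without normalization. The submitters' notes give HTSeq 0.11.1. Reads that HTSeq left out took no part in totals. Samples were assigned by title, and 0 columns were without a sample. Positions follow the Ensembl gene models of BDGP6.54, while alignment used an earlier release. The members, gene lists and named-gene rule (largest differences, list members, strongest 5 h against 3 h calls, threshold edge, non-coding, most abundant) were chosen with earlier results of these data known.

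All 9427 features with over 10 counts in every sample were fitted together in edgeR 4.0.16 (R 4.3.3, limma 3.58.1, DESeq2 1.42.0) with TMM, a mean for each condition and 2 RUVs factors, written anew because RUVSeq was not installed. Quasi-likelihood tests were Benjamini-Hochberg adjusted over all features, and a call was an adjusted p under 0.05. The pipeline was tested on simulated data. Alternatives were other filters, normalizations and scalings, DESeq2, no factors, a replicate block and leaving out each sample. CPM levels are before the factors. Samples are pools of different flies. In fits with the factors, p-values measure the spread between these pools that is left after the 2 factors, not all of it. A result on 1 withheld item is not reported here.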

Additional observations from a re-analysis of the deposited data

Results flagged for a closer look

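The following 10 members differed between the 5 h and 3 h exposures of D5 flies by the test of that difference (edgeR, log2 fold change, 5 h minus 3 h). They were CG8620 (2.0), CG31897 (1.46), Archease (1.31), Su(var)3-9 (0.93) and CG11417 (0.83) on the higher side, and Ets21C (-1.2), del (-1.16), Sgs1 (-1.09), lncRNA:CR44034 (-0.95) and ebd2 (-0.77) on the lower side. Only the calls of Ets21C and del held in all alternative fits that tested them.

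Read pairs with several alignments, which no comparison used, averaged 26.0% of all pairs at D30 and 7.60% in the other 15 samples. No D30 sample overlapped the others, and D30 was the only age on its flow cell.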

How the results depend on the processing

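The selection gave 193 genes, 173 with TMM-normalized CPM (148 shared), 202 without the 20 largest features (184 shared) and 202 with a pseudocount of 0.1 (148 shared). It gave 17 with CPM over 10 in every sample, 778 without a filter, 111 with the limit at 3 h and 5 h too, and 178 to 341 when 1 sample was left out (341 without D5 replicate 2, 321 without D30 replicate 3).

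Calls in the order 5 h against 3 h, 3 h, 5 h, D30 and D15 against D5 were 18, 10, 11, 152 and 25. They were 8, 31, 18, 81 and 3 without the factors, 9, 17, 20, 44 and 16 without a filter, and 5, 0, 2, 16 and 0 of the 17 members with CPM over 10. The DESeq2 Wald test moved 5 h against D5 to 18 and D15 against D5 to 52. Leaving out 1 sample gave 9 to 20, 6 to 20, 6 to 21, 75 to 171 and 1 to 46. The cause of these moves was not tested, except that a stricter filter tests fewer genes. Same-numbered samples did not all deviate together: correlations of their deviations after the factors ran from -0.11 to 0.56. It is thus not known whether the numbers mark a shared batch. A replicate block gave 17, 10, 15, 147 and 40. No single-gene call changed direction. Depth limits the members under 2 CPM most.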

Other observations

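Purine, folate and one-carbon metabolism held no member. Of 33 tested genes on this list, 12 (36.4%) rose in D30 against D5 and 0 fell (edgeR), beside 8.79% and 8.72% of all features, with a median log2 fold change of 0.45 against 0.05 for all features. Sardh, which breaks down sarcosine, had means of 5.09 and 19.8 CPM (1.62 ± 0.25 SE, adjusted p = 0.00094), and Gnmt, which makes sarcosine from glycine, 35.6 and 95.0 CPM (1.2 ± 0.22, adjusted p = 0.00246). In D15 against D5 none of the 33 was higher and 4 (12.1%) were lower, beside 1.52% and 2.29% of all features. Counts near those of all features came from cilium genes (2 of 16 higher, 12.5%, and 1 lower, 6.25%) and mitochondrial genes (1 of 11 higher, 9.09%). nompB, an intraflagellar transport gene, had means of 37.0 and 169 CPM at D5 and D30 (2.03 ± 0.39, adjusted p = 0.00309). Its means after 3, 5 and 8 h of light were 751, 763 and 140 CPM, so it was not particular to age.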
